A study of Mus musculus with 6 samples.

Results

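Collagens are the secreted chains of the extracellular matrix, and the collagen genes of the mouse were taken from the count table as every row whose symbol has the form Col, a number, the letter a and a number. This gave 44 of the 22851 rows. The cells were primary radial glial cells, progenitors found along the ventricles of the young brain, taken from C57BL/6J mice between postnatal days 0 and 3, grown in medium with 10% fetal bovine serum and then kept without serum for 6 days to become multiciliated ependymal cells. The 3 WT libraries came from wild-type mice and the 3 knockout libraries from mice lacking Edf1, whose protein is known to bridge transcription factors and to bind ribosomes that have collided. Both genotypes had the same strain background, serum withdrawal and time point. The labels do not say whether the libraries of a genotype came from separate animals or cultures, so p-values measure the spread between these libraries, which may be technical.

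Each collagen molecule is a helix of intertwined chains, made of copies of a single chain or of several partner chains. Fibrillar collagens assemble into the cables that give tissue its strength, basement membrane collagens form the sheet beneath epithelia and around vessels, and the remaining classes decorate fibrils, form finer filaments and networks, or span the cell membrane. In the brain, fibrillar collagens are known mainly from the meninges and vessel walls, and type IV collagen from the basement membranes of vessels and of the pial surface.

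Total counts were 13071766 to 28087006 per library, and 14243 genes had enough counts to be tested. Levels are given as CPM, counts scaled to a common library size, with TMM as the correction for library composition, and a gene is said to have risen or fallen when edgeR's quasi-likelihood test gave a Benjamini-Hochberg adjusted p under 0.05 over all tested genes. Edf1 stood at 82.6, 85.9 and 80.2 CPM in WT replicates 1 to 3 and at 9.84, 10.9 and 13.2 CPM in knockout replicates 1 to 3 (log2 fold change -2.85, SE 0.0909, adjusted p = 5.46e-09). In a principal component analysis the first component, with 60.7% of the variance, separated the genotypes, and the second, with 16.1%, set apart WT replicate 2, which had the fewest counts. Of 12 ependymal marker genes all were tested and 11 were lower in the knockout, with a summed level of 2077 to 2367 CPM in WT and 1199 to 1266 CPM in knockout libraries. Of 12 radial glia and astrocyte markers 3 rose (Fabp7, Nes and Aldh1l1), 2 fell (Gfap by 0.42 and Gjb6 by 1.49 on the log2 scale) and 7 did not pass the test. Their sum was 10831 to 11183 CPM in WT and 11802 to 12302 CPM in knockout libraries, mostly from Vim, which did not pass the test (log2 fold change 0.13, adjusted p = 0.0723). Among all tested genes 12.7% rose and 14.2% fell. In bulk RNA, fewer cells of a type and less RNA per cell cannot be told apart.

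Collagen transcripts were more abundant in the knockout libraries, and the rise spanned fibrillar, basement membrane and fibril-associated chains. Summed over the 44 genes, collagen stood at 1280, 1220 and 1415 CPM in WT replicates 1 to 3 and at 1817, 1871 and 1797 CPM in knockout replicates 1 to 3, a ratio of means of 1.40. Every knockout library lay above every WT library. As a share of all counts this was 0.120% to 0.141% in WT and 0.181% to 0.187% in the knockout. Of the 35 collagen genes with enough counts to be tested, 19 rose, 0 fell and 16 did not pass the test. Over all tested genes, 12.7% rose and 14.2% fell. The median log2 fold change of the tested collagens was 0.37, with a range of -0.65 to 1.38, against 0.0029 over all tested genes, and 28 of the 35 values were above 0. For 20 of the 35, every knockout library lay above every WT library, which held for 21.3% of all tested genes. For 2, every WT library lay above every knockout library, against 22.1% of all tested genes.

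The test for a fall gave 0 collagens with edgeR, DESeq2 and limma voom alike, and 2 collagens, Col15a1 and Col9a1, were lower at an unadjusted p under 0.05 in edgeR. This count depended on the processing. After a correction for GC content and transcript length, 3 collagens fell, Col15a1, Col27a1 and Col11a2, and without WT replicate 2 a single one fell, Col27a1, while 20 rose.

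**Figure D1:**
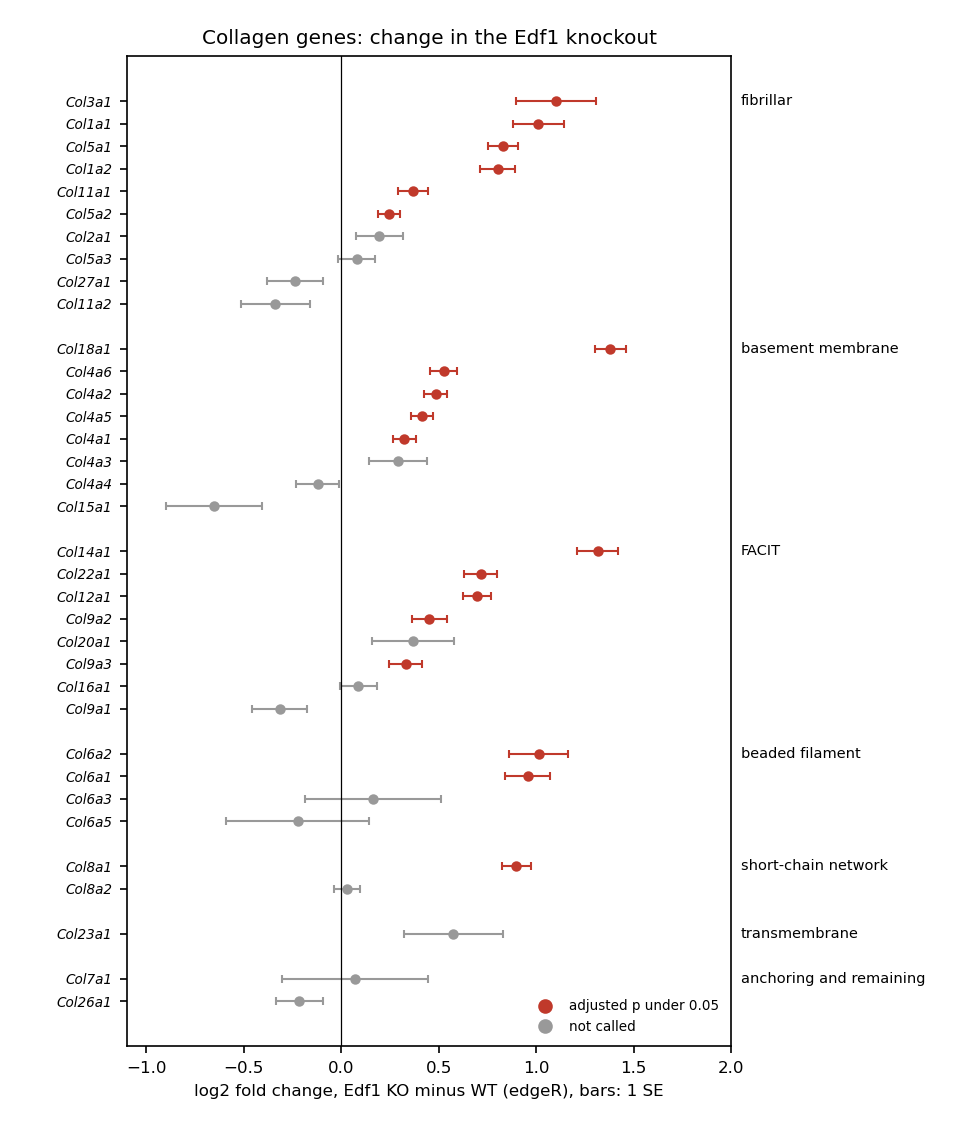
Log2 fold change (Edf1 knockout minus WT, horizontal axis) of the 35 tested collagen genes, grouped by class, with bars of 1 SE from edgeR's quasi-likelihood test. The genes that rose reach from 0.25 for Col5a2 to 1.38 for Col18a1, and the lowest value is -0.65 for Col15a1.

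Of 11 fibrillar genes, 10 were tested and 6 rose (12.7% of all tested genes rose), with a median log2 fold change of 0.31. The ratio of their summed levels, knockout to WT, was 1.33. The largest change was that of Col3a1, which encodes the chain of type III collagen, found with type I in pliable tissues. Col3a1 stood at 5.95, 9.71 and 10.2 CPM in WT and at 17.6, 22.8 and 14.1 CPM in knockout replicates 1 to 3 (log2 fold change 1.10, SE 0.204, adjusted p = 0.00163). The groups did not overlap, WT replicate 1 was the lowest library and knockout replicate 2 the highest.

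Type I collagen, the main fibre of skin, tendon and bone, is built from the chains of Col1a1 and Col1a2. Col1a1 was at 17.3, 25.4 and 24.7 CPM in WT and at 45.7, 49.0 and 39.5 CPM in knockout libraries (log2 fold change 1.01, SE 0.13, adjusted p = 0.000103). Col1a2 was at 27.0, 29.4 and 32.4 CPM in WT and at 50.8, 57.3 and 46.8 CPM in knockout libraries (log2 fold change 0.80, SE 0.0896, adjusted p = 3.53e-05). In both genes the groups were apart, and knockout replicate 2 was the highest and replicate 3 the lowest of the knockout libraries, the same order as in Col3a1.

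Type V collagen starts fibrils and limits their width. Its gene Col5a1 was at 29.7, 32.5 and 36.2 CPM in WT and at 57.5, 61.1 and 55.7 CPM in knockout libraries (log2 fold change 0.83, SE 0.0773, adjusted p = 8.12e-06). Its partner Col5a2, the most abundant fibrillar gene by CPM, was at 165, 156 and 180 CPM in WT and at 197, 196 and 202 CPM in knockout libraries (log2 fold change 0.25, SE 0.0568, adjusted p = 0.00676). Every knockout library lay above every WT library in both genes. A further type V chain, Col5a3, was at 34.0 to 39.6 CPM in WT and at 32.7 to 40.6 CPM in knockout libraries (log2 fold change 0.08, adjusted p = 0.582), and its groups overlapped. Col5a1 lies on chromosome 2, 2.32 Mb from Edf1, the targeted gene.

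Type XI collagen, known from cartilage fibrils and the eye and inner ear, combines Col11a1 with Col11a2 as partner chains. Col11a1 was at 130, 106 and 136 CPM in WT and at 158, 161 and 163 CPM in knockout libraries (log2 fold change 0.37, SE 0.077, adjusted p = 0.0036). Col11a2 was at 4.63, 3.73 and 5.19 CPM in WT and at 3.26, 3.51 and 3.97 CPM in knockout libraries, with overlapping groups (log2 fold change -0.34, SE 0.176, adjusted p = 0.179). The others that did not pass the test were Col2a1, the cartilage fibril chain, at 11.4 to 14.2 CPM in WT and 12.5 to 15.8 CPM in knockout libraries (log2 fold change 0.20, adjusted p = 0.262), and Col27a1, at 9.32 to 14.6 CPM in WT and 9.34 to 11.3 CPM in knockout libraries (log2 fold change -0.24, adjusted p = 0.249). Col24a1 had 2 to 7 counts per library and was not tested.

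The DNA upstream of the start site was read for the fibrillar genes that moved most or whose partner chains moved apart. Each stretch is the 250 bases before the RefSeq start on the gene's own strand, GRCm38.p6, 5′ to 3′, with no annotated exon in it. Capitals mark matches on either strand to any of 4 motifs. The CCAAT box was searched by the letters of its name. GGGCGG was taken as a GC box. For a TATA box the letters were TATAAA. An AP-1 site was taken as TGANTCA, with N for any base. Col3a1 (chr1:45311288-45311537, plus strand) holds a TATA box match and none of the others, and Col5a1 (chr2:27886175-27886424, plus strand) holds 2 GC box matches. Col11a1 (chr3:114030290-114030539, plus strand) holds 2 GC box matches and 1 CCAAT match, and Col11a2 (chr17:34038888-34039137, plus strand) holds 2 GC box matches and 1 TATA match.
Col3a1: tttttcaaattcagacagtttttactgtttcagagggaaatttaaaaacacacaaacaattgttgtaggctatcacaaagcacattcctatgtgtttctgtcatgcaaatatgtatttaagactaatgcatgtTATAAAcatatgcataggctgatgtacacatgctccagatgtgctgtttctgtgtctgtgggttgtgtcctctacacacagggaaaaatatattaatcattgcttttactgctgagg
Col5a1: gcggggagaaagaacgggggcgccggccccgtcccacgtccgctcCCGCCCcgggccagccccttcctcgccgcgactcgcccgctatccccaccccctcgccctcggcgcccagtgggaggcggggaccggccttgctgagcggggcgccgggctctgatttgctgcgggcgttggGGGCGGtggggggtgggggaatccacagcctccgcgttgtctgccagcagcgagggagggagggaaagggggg
Col11a1: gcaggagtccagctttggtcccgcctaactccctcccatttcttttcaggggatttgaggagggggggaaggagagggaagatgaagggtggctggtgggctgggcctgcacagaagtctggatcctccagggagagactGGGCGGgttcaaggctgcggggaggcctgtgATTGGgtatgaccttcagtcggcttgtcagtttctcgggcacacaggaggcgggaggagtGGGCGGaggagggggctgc
Col11a2: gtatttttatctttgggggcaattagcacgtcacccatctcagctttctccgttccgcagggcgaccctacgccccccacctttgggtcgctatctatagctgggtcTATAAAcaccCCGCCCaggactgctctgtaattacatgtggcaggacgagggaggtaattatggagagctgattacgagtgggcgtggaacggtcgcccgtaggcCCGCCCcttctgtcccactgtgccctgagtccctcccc

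All 8 basement membrane genes were tested, and 5 rose, against 12.7% of all tested genes. The basement membrane genes had a median log2 fold change of 0.37 and a ratio of summed levels of 1.40. Col18a1 had the largest rise of any collagen. Its chain carries heparan sulfate and releases endostatin, an inhibitor of vessel growth. Col18a1 was at 24.3, 25.0 and 28.1 CPM in WT and at 62.8, 73.4 and 65.0 CPM in knockout libraries (log2 fold change 1.38, SE 0.0798, adjusted p = 2.77e-07). The lowest knockout library lay far above the highest WT library. Its closest relative by structure, Col15a1, went the other way without passing the test, at 2.64, 4.20 and 2.43 CPM in WT and 1.72, 1.84 and 2.09 CPM in knockout libraries (log2 fold change -0.65, SE 0.246, adjusted p = 0.0689). The WT libraries of Col15a1 lay above the knockout libraries, and WT replicate 2 was the highest. With the GC and length correction Col15a1 fell (log2 fold change -0.73, adjusted p = 0.0370). It passed in no other alternative fit. Over these fits its log2 fold change was -0.79 to -0.42, with adjusted p up to 0.214.

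Type IV collagen forms the network of basement membranes from paired genes that lie head to head and share a promoter region. Col4a1 and Col4a2 are the chains found in nearly every basement membrane. Col4a1 was at 96.6, 98.8 and 106 CPM in WT and at 124, 132 and 122 CPM in knockout libraries (log2 fold change 0.32, SE 0.0578, adjusted p = 0.00128). Col4a2 was at 47.7, 44.3 and 47.7 CPM in WT and at 64.4, 64.8 and 66.4 CPM in knockout libraries (log2 fold change 0.48, SE 0.0576, adjusted p = 5.78e-05). Both rose, and neither had overlapping groups. In the annotation the exons of this gene pair on chromosome 8 overlap by 22 bases.

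Col4a5 and Col4a6, an X-linked pair known from kidney, eye and smooth muscle basement membranes, were the most abundant type IV genes. Col4a5 was at 193, 179 and 208 CPM in WT and at 255, 255 and 262 CPM in knockout libraries (log2 fold change 0.41, SE 0.0571, adjusted p = 0.000184). Col4a6 was at 144, 127 and 156 CPM in WT and at 206, 215 and 196 CPM in knockout libraries (log2 fold change 0.53, SE 0.0699, adjusted p = 0.000134). Both rose in every knockout library, and WT replicate 2 was the lowest library for each. The Y-linked gene Ddx3y, chosen after its values were seen, was at 57.2 to 78.3 CPM in WT and 67.0 to 77.6 CPM in the knockout, and Uty overlapped likewise, while the Y-linked Kdm5d and Eif2s3y were higher in every knockout library than in every WT library. The part of the sex of the donors in the X-linked values was not tested. These starts lie 1308 bases apart on opposite strands. The 250 bases upstream of Col4a6 (chrX:141474077-141474326, minus strand) are shown because they lie between this pair, and they hold 1 GC box match.
Col4a6: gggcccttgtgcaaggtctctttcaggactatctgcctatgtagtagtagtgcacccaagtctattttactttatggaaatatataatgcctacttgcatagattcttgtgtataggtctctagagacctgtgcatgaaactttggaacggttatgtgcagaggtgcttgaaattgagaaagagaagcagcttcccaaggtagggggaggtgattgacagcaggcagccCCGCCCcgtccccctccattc

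The third pair, Col4a3 and Col4a4, known from the filtering membrane of the kidney, lay much lower and did not pass the test. Col4a3 was at 5.09, 6.60 and 5.78 CPM in WT and at 6.76, 7.91 and 6.48 CPM in knockout libraries (log2 fold change 0.29, adjusted p = 0.167). Col4a4 was at 9.91, 10.1 and 10.7 CPM in WT and at 10.3, 9.19 and 8.85 CPM in knockout libraries (log2 fold change -0.12, adjusted p = 0.455). The groups overlapped in both.

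**Figure D2:**
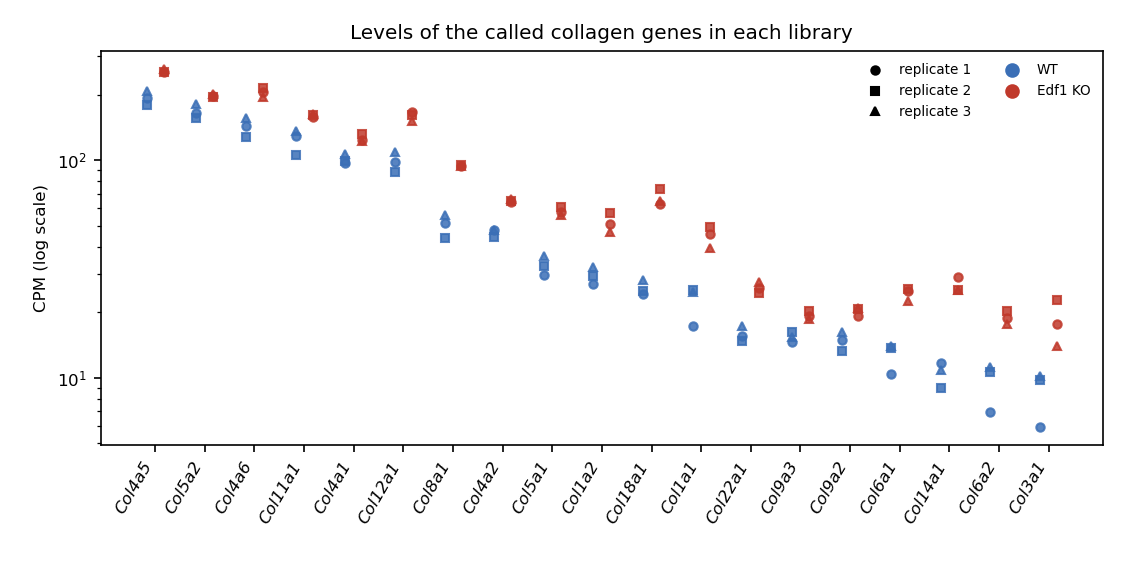
CPM (log axis) of the 19 collagen genes that rose, ordered by their WT mean, with 1 point for each of the 6 libraries, WT in blue and Edf1 knockout in red. For each gene the 3 red points lie above the 3 blue ones, as for Col18a1 at 24.3 to 28.1 CPM in WT and 62.8 to 73.4 CPM in the knockout.

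Fibril-associated collagens with interrupted helices (FACIT) sit on the surface of fibrils and link them to their surroundings. Of 9 FACIT genes 8 were tested and 5 rose, against 12.7% of all tested genes. The FACIT genes had a median log2 fold change of 0.41 and a ratio of summed levels of 1.53. Col14a1, which binds fibrils and decorin in skin and tendon, was at 11.7, 8.93 and 10.8 CPM in WT and at 29.0, 25.3 and 25.4 CPM in knockout libraries (log2 fold change 1.31, SE 0.104, adjusted p = 2.37e-06). Col12a1, its close relative from dense connective tissue and the most abundant FACIT gene, was at 98.2, 88.3 and 109 CPM in WT and at 166, 161 and 152 CPM in knockout libraries (log2 fold change 0.70, SE 0.0715, adjusted p = 1.82e-05). Col22a1, known from the junction of muscle and tendon, was at 15.5, 14.8 and 17.2 CPM in WT and at 25.8, 24.6 and 27.4 CPM in knockout libraries (log2 fold change 0.71, SE 0.0861, adjusted p = 6.27e-05). In these genes no knockout library came near the WT range. Col16a1 was at 20.6, 20.0 and 24.9 CPM in WT and at 23.9, 24.1 and 21.9 CPM in knockout libraries (log2 fold change 0.09, adjusted p = 0.545), and Col20a1 had a log2 fold change of 0.37 with overlapping groups (adjusted p = 0.22).

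Type IX collagen, which coats cartilage fibrils, is made of Col9a1, Col9a2 and Col9a3. Col9a2 was at 14.9, 13.3 and 16.2 CPM in WT and at 19.3, 20.7 and 20.9 CPM in knockout libraries (log2 fold change 0.45, SE 0.0905, adjusted p = 0.00273). Col9a3 was at 14.5, 16.2 and 15.5 CPM in WT and at 19.3, 20.2 and 18.5 CPM in knockout libraries (log2 fold change 0.33, SE 0.0845, adjusted p = 0.0117). Col9a1 was at 5.80, 6.29 and 6.65 CPM in WT and at 5.29, 4.51 and 5.17 CPM in knockout libraries (log2 fold change -0.32, adjusted p = 0.118). The former pair rose, while in Col9a1 every WT library lay above every knockout library without the difference passing the test. Of the 19 genes that rose, Col9a3 alone lost its call in any of the 15 alternatives, among them the fit without WT replicate 1 (log2 fold change 0.29, adjusted p = 0.0675) and that without knockout replicate 2 (0.30, adjusted p = 0.0559). It also shares 6.76% of its 31-base words with other genes, mostly with Tcfl5, which overlaps it on the opposite strand. Likewise Col4a3 shares 5.92%, mostly with C430014B12Rik, and Col5a1 2.21%, mostly with Gm13372, each overlapping on the opposite strand. Whether the counting used strand is not given in the sources used here. Col19a1 had at most 2 counts in a library and was not tested.

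Type VI collagen forms beaded filaments around cells from Col6a1, Col6a2 and a larger chain such as that of Col6a3. Of the 6 genes 4 were tested and 2 rose, against 12.7% of all tested genes. Col6a1 was at 10.4, 13.7 and 14.1 CPM in WT and at 25.0, 25.6 and 22.5 CPM in knockout libraries (log2 fold change 0.96, SE 0.114, adjusted p = 5.97e-05). Col6a2 was at 6.93, 10.6 and 11.2 CPM in WT and at 18.8, 20.3 and 17.7 CPM in knockout libraries (log2 fold change 1.01, SE 0.15, adjusted p = 0.000314). The groups were apart in both, and WT replicate 1 was the lowest library, as in Col1a1 and Col3a1. Col6a3 was near the lower limit of detection in every library, at 0.904, 0.544 and 1.08 CPM in WT and 1.35, 0.891 and 0.779 CPM in knockout libraries (log2 fold change 0.16, SE 0.349, adjusted p = 0.773). Col6a5 was likewise low (log2 fold change -0.22, adjusted p = 0.697), and Col6a4 and Col6a6, with at most 11 and 3 counts in a library, were not tested.

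Col6a2, Col6a1 and Col18a1, which lie next to each other in this order on chromosome 10, all rose. Col6a2 spans chr10:76595762-76623630, Col6a1 chr10:76708792-76726168 and Col18a1 chr10:77052178-77166548 (GRCm38, GENCODE M21), all on the minus strand. The gaps are 85161 and 326009 bases. Of the genes between Col6a1 and Col18a1, Pcbp3 had a log2 fold change of 0.11 without passing the test and Slc19a1 rose by 0.27 on the log2 scale. These were chosen by position after the values of the collagens were known. Col3a1 and Col5a2, on chromosome 1 with a gap of 24614 bases, had log2 fold changes of 1.10 and 0.25.

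Short-chain collagens form lattices such as that beneath the corneal endothelium. Of Col8a1 and Col8a2, the chains of type VIII collagen, the former rose. Col8a1 was at 51.3, 44.1 and 55.8 CPM in WT and at 94.4, 94.5 and 93.9 CPM in knockout libraries (log2 fold change 0.90, SE 0.0747, adjusted p = 3.41e-06). Col8a2 was at 51.2, 51.0 and 58.3 CPM in WT and at 52.2, 54.8 and 56.6 CPM in knockout libraries (log2 fold change 0.03, adjusted p = 0.794), and 1.96 SE either side reached from -0.10 to 0.16. The knockout libraries of Col8a1 were nearly equal to one another and all above WT, whereas those of Col8a2 lay inside the WT range. Upstream of Col8a1 (chr16:57754738-57754987, minus strand) there were 4 GC box matches. This sequence is printed because the ratio of Col8a1 to its partner moved most, as given with the chain ratios. The upstream sequence of Col8a2, not printed, also held 4 GC box matches. Col10a1, of growth plate cartilage, had 1 to 16 counts and was not tested.
Col8a1: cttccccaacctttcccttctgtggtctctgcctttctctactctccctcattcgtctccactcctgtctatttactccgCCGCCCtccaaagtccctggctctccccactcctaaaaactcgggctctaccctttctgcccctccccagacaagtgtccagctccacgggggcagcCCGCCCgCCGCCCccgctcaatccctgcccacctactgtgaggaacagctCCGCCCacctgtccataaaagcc

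Of the 4 transmembrane collagens only Col23a1 was tested. It was at 1.17, 2.1 and 1.57 CPM in WT and at 2.34, 2.40 and 2.19 CPM in knockout libraries, with groups that did not overlap (log2 fold change 0.58, SE 0.254, adjusted p = 0.115). Without WT replicate 2 it passed the test (log2 fold change 0.77, adjusted p = 0.0392). It passed in no other alternative fit, with log2 fold changes down to 0.35 and adjusted p up to 0.392. Col13a1, Col17a1, the hemidesmosome collagen of skin, and Col25a1, a neuronal collagen, were not tested, with at most 3, 20 and 3 counts in a library. Of the remaining genes, Col26a1 was at 11.6, 10.2 and 8.81 CPM in WT and at 8.79, 8.86 and 8.89 CPM in knockout libraries (log2 fold change -0.21, adjusted p = 0.219), Col7a1, of the anchoring fibrils of skin, had a log2 fold change of 0.07 (adjusted p = 0.91), and Col28a1 had at most 7 counts and was not tested.

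**Figure D3:**
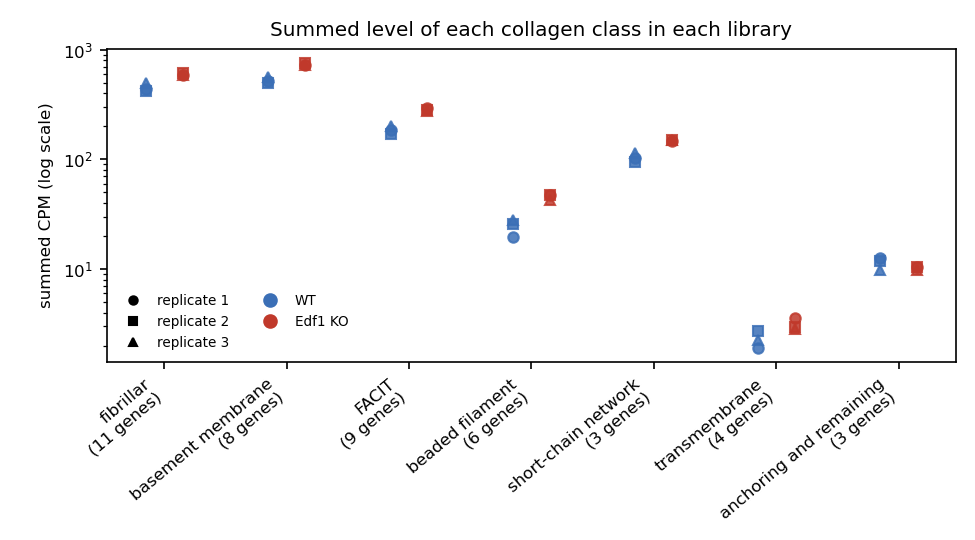
Summed CPM (log axis) of each collagen class, with 1 point for each library, WT in blue and Edf1 knockout in red. The fibrillar, basement membrane, FACIT, beaded filament, short-chain and transmembrane sums lie higher in every knockout library.

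By class, the ratio of summed levels (knockout to WT) was 1.33 for fibrillar, 1.40 for basement membrane and 1.5 for all other collagens together. The shares of tested genes that rose were 6 of 10, 5 of 8 and 8 of 17, against 12.7% of all tested genes. The median log2 fold changes were 0.31, 0.37 and 0.37. No test of the difference between classes was made, and these medians lay close to one another. Within the other classes the ratio was 1.53 for FACIT, 1.87 for beaded filament, 1.43 for short-chain and 1.35 for transmembrane. It was 0.90 for the anchoring and remaining genes, resting on 2 tested genes that did not pass the test. Transmembrane sums were 1.92 to 2.72 CPM in WT and 2.83 to 3.56 CPM in the knockout, with 1 tested gene that did not pass. Abundant genes weigh most in such sums. On average Col12a1 gave 98.3 of 186 CPM of the FACIT sum in WT and 160 of 284 CPM in the knockout. Col5a2 and Col11a1 gave 167 and 124 of 450 CPM of the fibrillar sum in WT.

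Levels of different genes were compared per kilobase of merged exons. In WT, Col4a5 stood highest at 28.7 CPM per kb, followed by Col4a6 at 17.9, Col5a2 at 17.4, Col4a1 at 13.5, Col8a2 at 11.9 and Col11a1 at 9.72 CPM per kb. The type I genes Col1a1 and Col1a2 stood at 3.42 and 2.38 CPM per kb, or at 3.78 and 5.54 when divided by the longest transcript. Part of this order depends on the length used: over the longest transcript Col4a5 still stood highest, at 29.5 CPM per kb, followed by Col5a2 at 25.2, Col4a6 at 21.4, Col11a1 at 16.2 and Col4a1 at 15.2 CPM per kb.

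Partner chains were compared as the ratio of their levels per kilobase in each library. With 3 libraries against 3 an exact permutation test cannot give a p under 0.1, so the ratios are described without a test. The ratio Col8a1/Col8a2 was 0.574, 0.495 and 0.549 in WT and 1.04, 0.988 and 0.951 in knockout libraries. The Col5a1/Col5a2 ratio was 0.222 ± 0.016 in WT and 0.331 ± 0.021 in the knockout (SD, n = 3). For Col11a1/Col11a2 it was 14.9 ± 0.63 and 24.3 ± 2.0 (SD, n = 3). The level of each ratio depends on the length used. With the longest transcripts the WT and knockout means were 0.798 and 1.47 for Col8a1/Col8a2 and 0.155 and 0.231 for Col5a1/Col5a2. They were 21.7 and 35.6 for Col11a1/Col11a2. In these 3 pairs every knockout library lay above every WT library, and so it was, by a hair, in Col4a3/Col4a4, with a highest WT ratio of 0.696 and a lowest knockout ratio of 0.697. In Col9a1/Col9a2, at a mean of 0.260 and 0.151, every WT library lay above every knockout library.

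In the other 5 pairs with enough counts the ratios of the genotypes overlapped. Col4a5/Col4a6 was 1.61 ± 0.048 in WT and 1.49 ± 0.090 in the knockout, Col4a1/Col4a2 1.92 ± 0.10 and 1.71 ± 0.085, and Col6a1/Col6a2 2.56 ± 0.25 and 2.45 ± 0.072 (SD, n = 3). Col1a1/Col1a2 was 1.43 ± 0.21 in WT and 1.64 ± 0.055 in the knockout (SD, n = 3). Type I collagen joins a pair of Col1a1 chains to a single Col1a2 chain. The level of this ratio depends on the length used: with each gene's longest transcript it was 0.680 in WT and 0.781 in the knockout. Col6a3 had under 10 counts in WT replicate 2, and no ratio to Col6a1 is given.

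**Figure D4:**
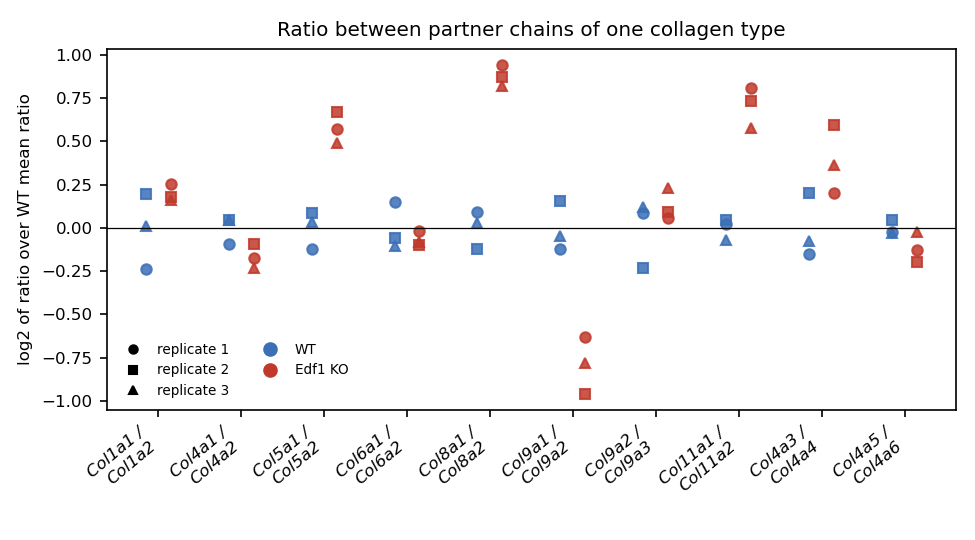
Log2 of the ratio between partner chains over the mean WT ratio of that pair, with 1 point for each library, WT in blue and Edf1 knockout in red. Col8a1/Col8a2, Col5a1/Col5a2, Col11a1/Col11a2 and Col4a3/Col4a4 lie higher in every knockout library, Col9a1/Col9a2 lies lower, and the other 5 overlap.

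Across all members, 35 of 44 had an upstream sequence in the RefSeq table. A GC box match stood in 10 of the 13 with a sequence that rose and in 8 of the 13 that were tested without passing, and in 55.5% of the promoters of tested genes and 32.7% of all 32851 promoters. A CCAAT match was found in 6 and 4 of these genes, against 35.1% of promoters of tested genes and 33.8% of all. A TATA box match was found in 1 and 1, against 6.74% and 12.4%, and an AP-1 match in 1 and 0, against 4.68% and 6.75%. A collagen gene was counted if any of its upstream sequences held a match, whereas the background shares count each promoter, so the measures differ. No match says only that these letters are not in this window.

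Genes that make, process, bind and remodel collagen were read out from lists of 70 genes, of which 63 were tested. Of these 26 (41.3%) rose and 3 fell, with a median log2 fold change of 0.15. Over all tested genes the shares were 12.7% and 14.2%. A count from a list of few genes says little beside these shares. Among enzymes and chaperones that fold and modify the chains in the endoplasmic reticulum, 10 of 22 rose and 1 fell, with a median of 0.13. The largest rise was that of Creb3l1, a membrane-bound transcription factor known to drive collagen secretion in bone, at 25.0, 23.4 and 27.2 CPM in WT and 37.8, 35.8 and 33.8 CPM in knockout libraries (log2 fold change 0.50, adjusted p = 0.000568). Serpinh1, the collagen chaperone HSP47, rose, at 312 to 319 CPM in WT and 362 to 366 CPM in knockout libraries (log2 fold change 0.21, adjusted p = 0.00309). The prolyl hydroxylase subunit P4ha1, the prolyl 3-hydroxylase complex genes P3h1 and Crtap, the collagen peptidyl-prolyl isomerase Fkbp10 and the galactosyltransferase Colgalt1 also rose, by 0.23, 0.38, 0.30, 0.47 and 0.22 on the log2 scale. P4hb, the most abundant of the list, was at 432 to 477 CPM in WT and 432 to 451 CPM in knockout libraries (log2 fold change -0.01, adjusted p = 0.913). P4ha2, P4ha3, Plod1, Plod2 and Plod3 did not pass the test either. Of these P4ha3 was at 200 to 221 CPM in WT and 204 to 207 CPM in knockout libraries (log2 fold change -0.01, adjusted p = 0.879). Tmem38b, an endoplasmic reticulum cation channel, fell from 30.2, 34.4 and 32.9 CPM to 24.6, 24.2 and 26.5 CPM (log2 fold change -0.36, adjusted p = 0.00448).

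Outside the cell, propeptides are cut off by proteases, and 2 of 7 such genes rose, against 12.7% of all tested genes. Adamts2, which removes the amino-terminal propeptide of fibrillar collagens, was at 0.979, 0.311 and 0.594 CPM in WT and 1.90, 2.12 and 1.42 CPM in knockout libraries (log2 fold change 1.36, SE 0.353, adjusted p = 0.0129), from at most 40 counts in a library. Bmp1, the protease of the carboxy-terminal propeptide, was at 92.1 to 100 CPM in WT and 102 to 110 CPM in knockout libraries (log2 fold change 0.15, adjusted p = 0.0638). Its enhancer Pcolce rose (log2 fold change 0.54, adjusted p = 0.00124). Of the genes that cross-link collagen, 3 of 7 rose. Lox, lysyl oxidase, was at 3.01, 2.64 and 3.78 CPM in WT and 6.08, 6.85 and 7.11 CPM in knockout libraries (log2 fold change 1.08, adjusted p = 0.000398), and Loxl1 and Pxdn, the peroxidase that cross-links type IV collagen, rose by 0.87 and 0.43 on the log2 scale. Loxl3, the most abundant of the list, was at 68.2 to 81.9 CPM in WT and 64.4 to 65.3 CPM in knockout libraries (log2 fold change -0.19, adjusted p = 0.0576).

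Small leucine-rich proteoglycans bind fibrils, and 4 of the 8 tested rose, against 12.7% of all tested genes. Dcn, decorin, was at 7.53, 8.23 and 8.81 CPM in WT and 19.8, 25.3 and 14 CPM in knockout libraries (log2 fold change 1.25, SE 0.184, adjusted p = 0.000292). Knockout replicate 2 was the highest and replicate 3 the lowest for Dcn, as for Col1a1, Col1a2 and Col3a1. This order was not particular to these genes: it also held for Col5a1, Col6a1 and Col4a6, but not for Col18a1 or Col14a1. Prelp, the most abundant of the list, was at 366 to 376 CPM in WT and 337 to 366 CPM in knockout libraries (log2 fold change -0.06, adjusted p = 0.387). Of 10 tested collagen receptors 3 rose and 1 fell, against 12.7% and 14.2% of all tested genes. Itga1, the alpha subunit of a collagen-binding integrin, was at 42.7, 33.2 and 46.0 CPM in WT and 54.5, 56.1 and 56.2 CPM in knockout libraries (log2 fold change 0.44, adjusted p = 0.00393). Lair1, an inhibitory receptor of immune cells, fell by 0.44 on the log2 scale (adjusted p = 0.00363), and Ddr1, the most abundant receptor, had a log2 fold change of -0.04 (adjusted p = 0.565). Microglial markers moved with Lair1: 8 of 10 fell, and their summed level was 1832 to 1968 CPM in WT and 1217 to 1250 CPM in the knockout. Their part in the Lair1 value was not tested.

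Genes of collagen turnover moved in both directions, with 4 of 9 tested higher and 1 lower, against 12.7% and 14.2% of all tested genes. Mmp2, a gelatinase, rose from 10.8, 13.4 and 10.6 CPM to 27.0, 25.8 and 23.0 CPM (log2 fold change 1.13, adjusted p = 7.53e-06). The metalloproteinase inhibitor Timp1 rose by 1.16 on the log2 scale (adjusted p = 0.00522) at 1.43 to 2.38 CPM in WT and 3.13 to 5.51 CPM in the knockout, and the abundant Timp2 by 0.18 (adjusted p = 0.0128). Timp4 fell from 33.7, 32.1 and 35.0 CPM to 26.6, 26.5 and 23.9 CPM (log2 fold change -0.40, adjusted p = 0.00201). Timp3 rose by 0.53 (adjusted p = 7.14e-05), at 149 to 179 CPM in WT and 235 to 248 CPM in the knockout. Mmp14, another metalloproteinase gene, was at 225 to 229 CPM in WT and 212 to 214 CPM in the knockout. It did not pass the test (log2 fold change -0.09, adjusted p = 0.137). Both a protease and its inhibitors were among the genes that rose.

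**Figure D5:**
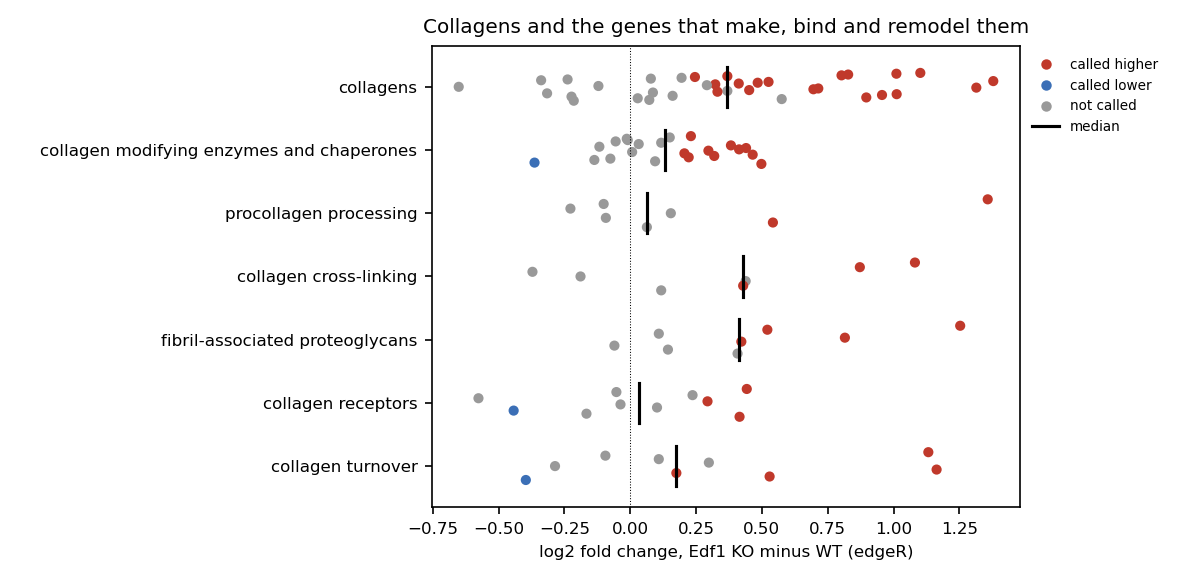
Log2 fold change (knockout minus WT, horizontal axis) of tested collagens and of the tested genes of 6 collagen-related lists, coloured by whether they rose, fell or did not pass edgeR's test, with the list median as a bar. Medians are 0.37 for collagens, 0.43 for cross-linking, 0.41 for proteoglycans and 0.13 for modifying enzymes and chaperones.

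Markers of cells known to make much collagen were read out beside these values. Among all tested genes 12.7% rose and 14.2% fell. Of 16 fibroblast markers 10 were tested and 4 rose (Lum, Dcn, Twist1 and Fn1), with none called lower by edgeR, and their summed level was 451 to 527 CPM in WT and 584 to 694 CPM in the knockout. Most of this sum came from Fn1, at 363 to 437 CPM in WT and 490 to 581 CPM in the knockout. Lum and Dcn are also among the proteoglycans above. Pdgfra, a defining fibroblast gene, was at 11.3 to 12.5 CPM in WT and 10.0 to 12.3 CPM in knockout libraries (log2 fold change -0.09, adjusted p = 0.584). Twist2 had 0 counts in every library, and Tbx18, Foxc2, Crabp2, Slc6a13 and Slc47a1 had at most 10. Of 12 mural markers 7 were tested and 5 rose (Pdgfrb, Cspg4, Notch3, Acta2 and Tagln). The 12 summed to 843 to 883 CPM in WT and 993 to 1076 CPM in the knockout, mostly from Acta2 and Tagln. Pdgfrb was at 34.4 to 35.1 CPM in WT and 44.8 to 48.2 CPM in the knockout (log2 fold change 0.42, adjusted p = 0.000317). Rgs5, Kcnj8, Abcc9, Higd1b and Vtn, from the same list, had at most 15 counts in a library. The part of fibroblasts and mural cells in the collagen values was not tested.

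Endothelial markers summed to 49.5 to 55.3 CPM in WT and 132 to 136 CPM in the knockout, most of it from Kdr, which rose by 1.73 on the log2 scale while Flt1 fell by 1.58. Their defining genes Pecam1, Cldn5 and Cdh5 had at most 26 counts in a library. Cartilage and bone markers, relevant to the type II, IX and XI chains, had 1 of 7 tested genes higher and 2 lower. The shares over all tested genes were 12.7% and 14.2%. The cartilage and bone sum was 163 to 208 CPM in WT and 155 to 166 CPM in the knockout. Most of it came from Cnmd, at 121 to 162 CPM in WT and 114 to 126 CPM in the knockout (adjusted p = 0.0788 in edgeR's test). Acan, the main cartilage proteoglycan, had at most 2 counts in a library and the bone gene Bglap 0. Of 5 tested choroid plexus markers 1 rose, Otx2, by 0.68 on the log2 scale, and their sum was 107 to 133 CPM in WT and 119 to 142 CPM in the knockout. Of 7 tested neuron markers Tubb3 and Dcx fell, by 0.81 and 1.61 on the log2 scale, while their sum, mostly from Map2, was 255 to 330 CPM in WT and 274 to 290 CPM in the knockout.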

How the data were processed

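RNA was sequenced in 3 WT and 3 Edf1 knockout libraries from cultured radial glial cells. The values are the authors' deposited read counts, whole numbers for each gene symbol in 1 column per library. The submitters' processing notes name FastQC 0.11.2, cutadapt 1.11, HISAT2 2.1.0 and GRCm38. The counting program and strand setting are not given in the sources used here. RNA was taken with TRIzol and libraries were made with the MGIEasy mRNA kit, per the labels' protocols.

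In R 4.3.3 with edgeR 4.0.16, filterByExpr kept 14243 of 22851 genes, TMM factors were applied, and the quasi-likelihood test compared knockout with WT without covariates. The SE is the absolute log2 fold change over the root of F. On simulated counts for 14243 genes with 200 genes changed 2-fold, this test recovered 91% of them. Of its calls 5.21% were false, and with no gene changed it called 0. Smaller changes, such as the 1.19-fold rise of Col5a2, were not simulated, nor were as many changed genes as were called here. Alternatives used DESeq2 1.42.0, limma 3.58.1 voom, other scalings and filters, the replicate number as a block, a correction for GC content and length, each library left out, and a threshold of 0.01. Exon lengths and positions came from GENCODE M21 and upstream sequences from RefSeq (GRCm38.p6).

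The members, the collagen classes, the related lists and the marker lists (ependymal, radial glia and astrocyte, fibroblast, mural, endothelial, cartilage and bone, choroid plexus, microglia, neuron) were chosen with earlier results of these data known. Values in every library were given for the most abundant members of each class, the 10 largest rises and falls that passed the test, and partner chains. From each related list the rule named the largest rise, the largest fall and the most abundant gene, and other genes were named after their values were seen.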

Additional observations from a re-analysis of the deposited data

How the results depend on the processing

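The number of collagens that rose was 18 to 20 in each of the 15 alternatives, against 19 in the fit reported, and 18 of these 19 kept their call in all of them, the exception being Col9a3. The number that fell was 0, except for 3 with the GC and length correction and a range of 0 to 1 when each library was left out. In those fits the log2 fold change and adjusted p were -0.73 and 0.0370 for Col15a1, -0.38 and 0.0263 for Col27a1 and -0.49 and 0.0407 for Col11a2 with the correction, and -0.37 and 0.0219 for Col27a1 without WT replicate 2. The cause was not tested. The ratio of summed collagen levels of 1.40 was 1.36 to 1.46 when each library was left out. Collagen-related genes that passed the test numbered 22 to 32, against 29, and the log2 fold change of Edf1 was -2.99 to -2.75. Deviations from the genotype mean correlated at 0.069, 0.060 and 0.037 between libraries with the same replicate number. Correlations between libraries with different numbers are not given, so these values do not settle whether the numbers pair the samples. With the replicate block, 19 collagens rose and 31 related genes passed the test. Fits that leave out a library rest on 2 libraries in that genotype. The lowest total, 13071766 counts in WT replicate 2, and the 9 collagens too low to test limit what can be said of rare chains.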
